A study of Mus musculus with 27 samples.

Results

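Hox genes encode homeodomain transcription factors and lie in 4 clusters, HoxA, HoxB, HoxC and HoxD, on mouse chromosomes 6, 11, 15 and 2. They were taken here as every gene whose array annotation gives a symbol of Hox, a cluster letter and a number, with 1 probe set per gene, the one of highest mean over all arrays. This gave 33 genes of the 18194 named genes on the array, with 9 genes of HoxA, 9 of HoxB, 7 of HoxC and 8 of HoxD. The genes are ordered below by paralogue number, the position that corresponds between clusters: 7 anterior genes (up to number 3), 12 central genes (above 3 and up to 8) and 14 posterior genes (above 8).

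During embryogenesis Hox genes are switched on in the order in which they lie in a cluster, from the low-numbered 3′ end to the high-numbered 5′ end. The low-numbered genes start in the primitive streak and act in hindbrain and anterior trunk, while the high-numbered genes act in the posterior trunk, tail bud, limb and urogenital system. In embryonic stem cells the clusters are held silent by Polycomb repression, and retinoic acid, Wnt and Fgf signals and the Cdx factors act on them as mesoderm forms. Hox proteins bind DNA together with TALE homeodomain partners of the Pbx and Meis families.

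The study asked which genes depend on Sox17, a transcription factor of endoderm, while mouse embryonic stem cells of the line AB2.2 form mesoderm and heart muscle. A lentiviral vector gave the cells green fluorescence (eGFP) and a short hairpin RNA (shRNA), directed either at Sox17 or, in the control arm, at firefly luciferase, which mouse cells lack. Both arms were therefore transduced and sorted on green fluorescence before they were grown as embryoid bodies in hanging drops and plated after 4.5 days. RNA was profiled on Affymetrix arrays before differentiation (day 0) and on days 2, 4 and 5, then days 6, 8 and 10, with 2 arrays per arm and day except 1 array for Sox17 shRNA on day 0, 27 in all.

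The labels call the arrays biological replicates without saying whether they were separate transductions, so p-values measure the spread between these arrays only. The Sox17 probe set read 3.69 to 3.92 on the log2 scale on day 0. Over days 4 to 10 it read 9.35 to 10.66 in the control and 5.53 to 10.08 with Sox17 shRNA, so the arms overlapped, with a mean difference of -2.0 (SE 0.36, adjusted p = 0.000363, limma). All 10 measured pluripotency markers fell in the control between day 0 and day 10. Array medians lay between 5.50 and 5.56. The bioB spike-in, a pre-labelled bacterial transcript added as a hybridisation control, was brighter on 9 arrays (9.21 to 9.67; all of days 0 and 2, and replicate 1 of day 4 in both arms) than on the other 18 (6.49 to 7.95). The 3′ to 5′ actin difference, a sign of RNA quality, was highest in Sox17 shRNA replicate 2 of days 4 and 6 (up to 0.86, against 0.33 to 0.55 in the other 25 arrays).

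The promoters of 5 genes called between the arms are shown first, to set side by side genes of different timing: Hoxb1, called on day 4, the 3 neighbours Hoxd8, Hoxd9 and Hoxd10, and Hoxa10, whose difference was largest on day 10. Hoxc8 and Hoxc10 had no entry in the promoter table. Each window is the 250 bases before the start that the RefSeq promoter table uses (GRCm38.p6), printed 5′ to 3′ on the gene's strand. For Hoxb1 and Hoxd10 this start is not the outer start of the gene in the RefSeq gene table (96365746 and 74684273), so their windows reach into or lie within the annotated gene. Their positions are chr11:96365508-96365757 (plus strand) for Hoxb1, chr2:74704365-74704614 (plus) for Hoxd8, chr2:74697513-74697762 (plus) for Hoxd9, chr2:74691641-74691890 (plus) for Hoxd10 and chr6:52240855-52241104 (minus) for Hoxa10. Capitals mark AGGTCA, the half-site of retinoic acid and other nuclear receptors, on either strand.
Hoxb1: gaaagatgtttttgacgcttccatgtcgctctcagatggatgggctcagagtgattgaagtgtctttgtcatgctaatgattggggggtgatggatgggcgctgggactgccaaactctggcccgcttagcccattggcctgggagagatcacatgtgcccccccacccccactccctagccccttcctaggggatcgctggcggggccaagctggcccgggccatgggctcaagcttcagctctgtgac
Hoxd8: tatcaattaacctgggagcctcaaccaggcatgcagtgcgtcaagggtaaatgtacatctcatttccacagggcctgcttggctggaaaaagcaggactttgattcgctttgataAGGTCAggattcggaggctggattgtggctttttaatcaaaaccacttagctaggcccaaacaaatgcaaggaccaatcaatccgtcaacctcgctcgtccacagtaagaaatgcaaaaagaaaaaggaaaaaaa
Hoxd9: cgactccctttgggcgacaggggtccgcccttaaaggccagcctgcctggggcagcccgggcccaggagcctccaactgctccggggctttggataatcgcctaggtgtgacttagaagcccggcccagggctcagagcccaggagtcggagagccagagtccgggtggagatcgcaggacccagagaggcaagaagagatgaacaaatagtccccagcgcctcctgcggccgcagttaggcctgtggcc
Hoxd10: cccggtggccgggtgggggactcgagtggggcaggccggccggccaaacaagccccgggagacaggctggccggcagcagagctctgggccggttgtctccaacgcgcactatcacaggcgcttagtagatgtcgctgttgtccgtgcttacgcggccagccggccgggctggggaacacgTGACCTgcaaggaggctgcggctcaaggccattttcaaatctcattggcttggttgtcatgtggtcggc
Hoxa10: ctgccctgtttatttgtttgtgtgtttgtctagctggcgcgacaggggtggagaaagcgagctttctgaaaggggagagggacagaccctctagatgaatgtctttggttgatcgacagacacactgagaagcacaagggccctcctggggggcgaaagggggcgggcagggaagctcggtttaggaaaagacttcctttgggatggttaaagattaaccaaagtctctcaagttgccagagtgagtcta
Counted from the start the promoter table uses, the half-site began at -135 in Hoxd8 and, as TGACCT on the other strand, at -69 in Hoxd10. Of the 33 Hox genes, 19 had an entry in the promoter table. AGGTCA was found in 5 of those 19 (Hoxd10, Hoxd8, Hoxd3, Hoxb4 and Hoxc4) and in 14% of all 32851 promoters. The Cdx core TTTATG was in 3 of 19 (Hoxd11, Hoxd3 and Hoxa7) against 10.8% of all promoters. TGATTNAT, a single form of the Hox-Pbx motif, was in 1 (Hoxa2) against 2.82%. Other forms of that motif were not searched, so a window without TGATTNAT may still hold a Hox-Pbx site. The Sox motif AACAAT was in 0 of the 19 windows and in 9.42% of all promoters. Both strands were searched, no motif contains another, and a match describes the letters of these windows only.

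Levels are log2 values from the authors' normalization, on which a difference of 1 is a 2-fold difference, and differences of dim genes may be understated. The normalization sets every array to the same distribution, so each difference is relative to the other genes. Levels of different genes are not compared, since probes differ in brightness. A gene entered the main test where at least 2 arrays exceeded 5.53, the median of all values; 23 of the 33 Hox genes did, and 13297 genes in all. Of those 23, 9 passed only through Sox17 shRNA arrays (Hoxa10, Hoxa11, Hoxb1, Hoxc4, Hoxc8, Hoxc10, Hoxd9, Hoxd10 and Hoxd13), so counts are also given for all 33 without that filter. These 9 could be tested only because they were high with Sox17 shRNA, so their adjusted p-values between the arms carry that selection. The fits below that leave out an array kept the genes filtered on all arrays, so they leave that selection in place. A gene is called where its limma p, adjusted by Benjamini-Hochberg over all genes tested, is under 0.05.

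**Figure D1:**
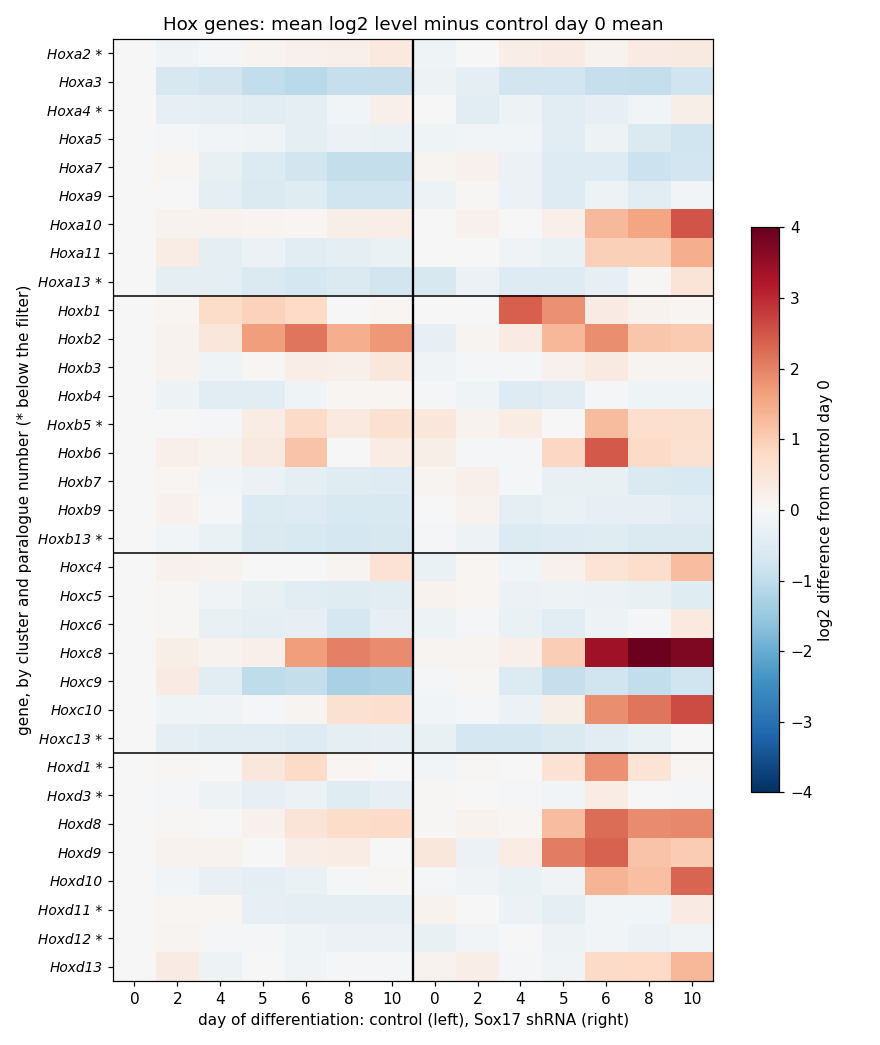
Mean log2 level of each of the 33 Hox genes (vertical axis, by cluster and paralogue number; asterisks mark the 10 genes below the filter) in each arm and day (horizontal axis), minus its control mean on day 0; red is higher and blue lower. Hoxc8, Hoxc10, Hoxa10 and Hoxd10 are the strongest red on the right (Sox17 shRNA) on day 10, and Hoxb2 is red in both arms.

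In the control arm few Hox genes rose clearly above their day 0 level. Of the 23 genes, 6 were higher and 8 lower on day 10 than on day 0, where 71.5% of all genes tested were called (31.5% higher, 40.0% lower), so the share of Hox genes called was not above that of genes at large. The genes that rose were Hoxc8 (1.90, 3.73-fold, SE 0.21, adjusted p = 3.81e-07), Hoxb2 (1.72), Hoxd8 (0.75), Hoxc10 (0.68), Hoxc4 (0.57) and Hoxb3 (0.47). Without the filter, 7 of 33 were higher and 11 lower, against 63.5% of 18194 genes called. The day 10 calls of Hoxb3, Hoxc4 and Hoxd8 were lost without control replicate 1 of day 0, with values down to 0.30, 0.43 and 0.60, and the call of Hoxc4 was also lost without replicate 1 of day 10.

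Hoxb2, which patterns the hindbrain, was the first Hox gene called as higher in the control, on day 5. Its control levels were 5.75 and 5.64 on day 0, 5.84 and 5.80 on day 2, 6.01 and 6.28 on day 4, 7.26 and 7.50 on day 5, and 7.99 and 7.68 on day 6. It then read 7.12 and 7.18 on day 8, and 7.36 and 7.46 on day 10. All control arrays from day 5 lay above all those of days 0 to 4. The rise on day 6 was 2.14 (4.41-fold, SE 0.25, adjusted p = 8.49e-07).

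Hoxb6, a central gene of the trunk, rose and fell again within a few days. Control arrays read 4.46 and 4.51 on day 0, 4.59 and 5.08 on day 5, 5.59 and 5.66 on day 6, and 4.50 and 4.53 on day 8. The day 6 level was 1.14 above day 0 (2.20-fold, SE 0.15, adjusted p = 4.21e-06), and by day 8 both arrays were back near the day 0 values. Hoxc8, which patterns thoracic vertebrae, stayed between 3.39 and 3.74 in the control up to day 5, read 4.76 and 5.49 on day 6, and then held 5.47 and 5.48 on day 8 and 5.39 and 5.32 on day 10.

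Counts of called genes in the control were 1 of 23 on day 2 (32.1% of all genes called), 2 on day 4 (46.1%), 8 on day 5 (57.4%), 10 on day 6 (63.1%) and 12 on day 8 (72.2%). Each share lay below that of all genes tested. In the Sox17 shRNA arm, against its own single day 0 array, 0 of 23 were called on day 2 (16.4% of all genes called; 0 also at an unadjusted p under 0.05 in limma, and 1 of 33 without the filter), 1 on day 4 (33.2%), 8 on day 5 (45.6%), and 15 at each of days 6 (53.0%), 8 (63.5%) and 10 (63.8%). On day 10, 10 of those 15 were higher than on day 0 and 5 lower (28.2% and 35.6% of all genes). Since the members that passed only through Sox17 shRNA arrays had to be high there, the same counts without the filter were 12 higher and 6 lower of 33, against 55.2% of all genes called. The arms share no arrays, and whether the counts differ between arms was not tested.

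Several Hox genes appeared to fall in the control from their day 0 readings, and these falls moved with the spike-in signal. Whether the day 0 readings lay above background was not tested. Hoxc9, a posterior gene, read 7.58 and 7.69 on day 0, 7.87 and 8.07 on day 2, and 7.55 on day 4 in replicate 1, all on arrays with bright bioB. It read 6.79 in replicate 2 of day 4 and 6.34 to 6.85 on all later control arrays, which had dim bioB. The Sox17 shRNA arm split the same way within day 4, with 7.53 in replicate 1 and 6.65 in replicate 2.

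Between the 2 control arrays of day 4 alone, replicate 2 was lower than replicate 1 by 0.76 for Hoxc9, by 0.66 for Hoxa9, by 0.65 for Hoxa3 and by 0.51 for Hoxa7 (differences of -0.76, -0.66, -0.65 and -0.51). Replicate 1 of day 4 differed from the day 0 mean by -0.08 for Hoxc9, -0.05 for Hoxa9 and -0.05 for Hoxa7, but by -0.42 for Hoxa3. From day 0 to day 10 the differences were -1.24 for Hoxc9 (adjusted p = 0.000102), -0.97 for Hoxa7, -0.94 for Hoxa3 and -0.78 for Hoxa9. With a term for bright bioB in the fit, Hoxc9 (-0.42, adjusted p = 0.0298) and Hoxa7 (-0.47, adjusted p = 0.00806) stayed called, while Hoxa3 (-0.35, adjusted p = 0.23) and Hoxa9 (-0.16, adjusted p = 0.621) did not. Hoxb7, Hoxb9, Hoxc5 and Hoxc6 also lost their day 10 call with that term (differences of -0.12 to -0.07, where they had been -0.61 to -0.33). Of the 6 rises, those of Hoxc8 (1.99), Hoxb2 (1.13), Hoxc4 (0.73) and Hoxb3 (0.50) stayed called, while those of Hoxc10 (0.68, adjusted p = 0.0515) and Hoxd8 (0.57, adjusted p = 0.132) did not. The part of the spike-in signal in the falls was not tested further; on days 6 to 10 it ran from 6.49 to 7.26 in the control and from 6.64 to 7.11 with Sox17 shRNA.

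**Figure D2:**
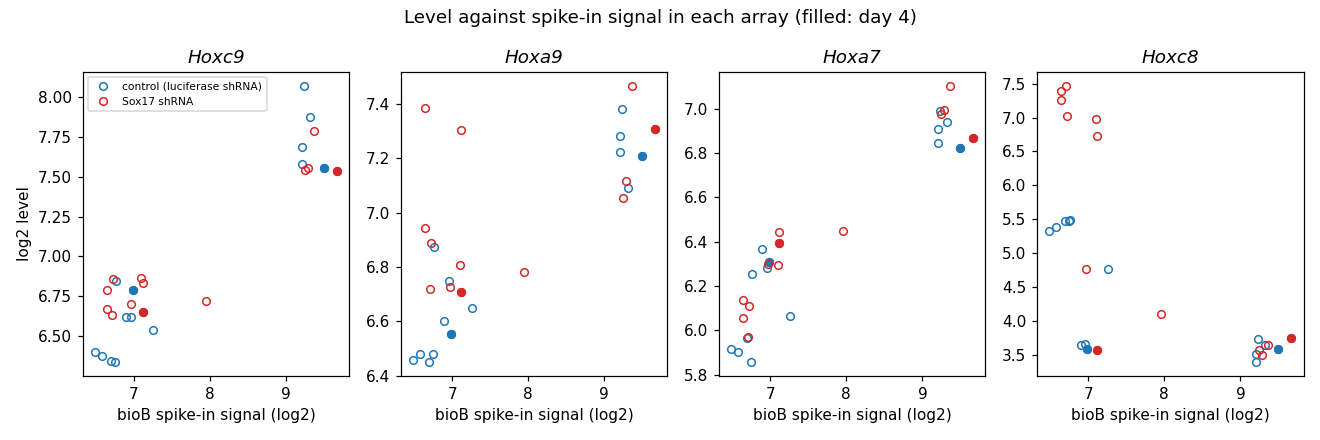
Log2 level of Hoxc9, Hoxa9, Hoxa7 and Hoxc8 (vertical axis) against the log2 signal of the bioB spike-in (horizontal axis) in each of the 27 arrays, blue for the control and red for Sox17 shRNA, with day 4 arrays filled. For Hoxc9 and Hoxa7 every array with bioB above 9 lies above every other array, and the day 4 arrays of both arms split with it.

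No Hox gene was called between the arms before day 4. On day 0, 0 of 23 Hox genes were called between Sox17 shRNA and control in the limma fit (1.89% of all genes called), and on day 2 again 0 (2.54%). At an unadjusted p under 0.05 there were 0 on either day with the filter, and 2 and 0 of 33 without it. From day 4 on, Hox genes were called almost only in the direction of more RNA with Sox17 shRNA: 1 of 23 on day 4 (5.14% of all genes called, 3.33% higher), 4 on day 5 (9.39%, 6.15% higher), 9 on day 6 (5.20%, 2.84% higher), 9 on day 8 (4.82%, 1.89% higher), and 10 on day 10 (10.0%, 5.62% higher and 4.38% lower), of which Hoxa5 alone was lower. Averaged over days 4, 5, 6, 8 and 10, 12 of 23 were higher and 2 lower, where 27% of all genes were called, 14.8% higher and 12.2% lower. In a bulk sample, more cells that express a gene and more RNA per cell cannot be told apart.

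For all 33 genes without the filter, called counts were 1 on day 4 (3.07% of all genes), 3 on day 5 (6.02%), 11 on day 6 (3.50%), 9 on day 8 (3.54%) and 12 on day 10 (7.27%). In the average over the 5 days, 17 of 33 were higher and 1 lower (19.6% of all genes called, 10.7% higher and 8.95% lower), with a median difference of 0.19 against 0.01 for all genes. Higher calls made up a larger share of the posterior and central than of the anterior genes, a difference that was not tested. Of the 14 posterior genes 9 were higher and 0 lower, with a median of 0.37 and all 14 above 0. Of the 12 central genes 6 were higher and 0 lower (median 0.15). Of the 7 anterior genes 2 were higher and 1 lower (median 0.13). In the average, Hoxa13, Hoxb5, Hoxd1, Hoxd3 and Hoxd11 were called in this fit although they had not passed the filter, and Hoxa5 was no longer called.

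**Figure D3:**
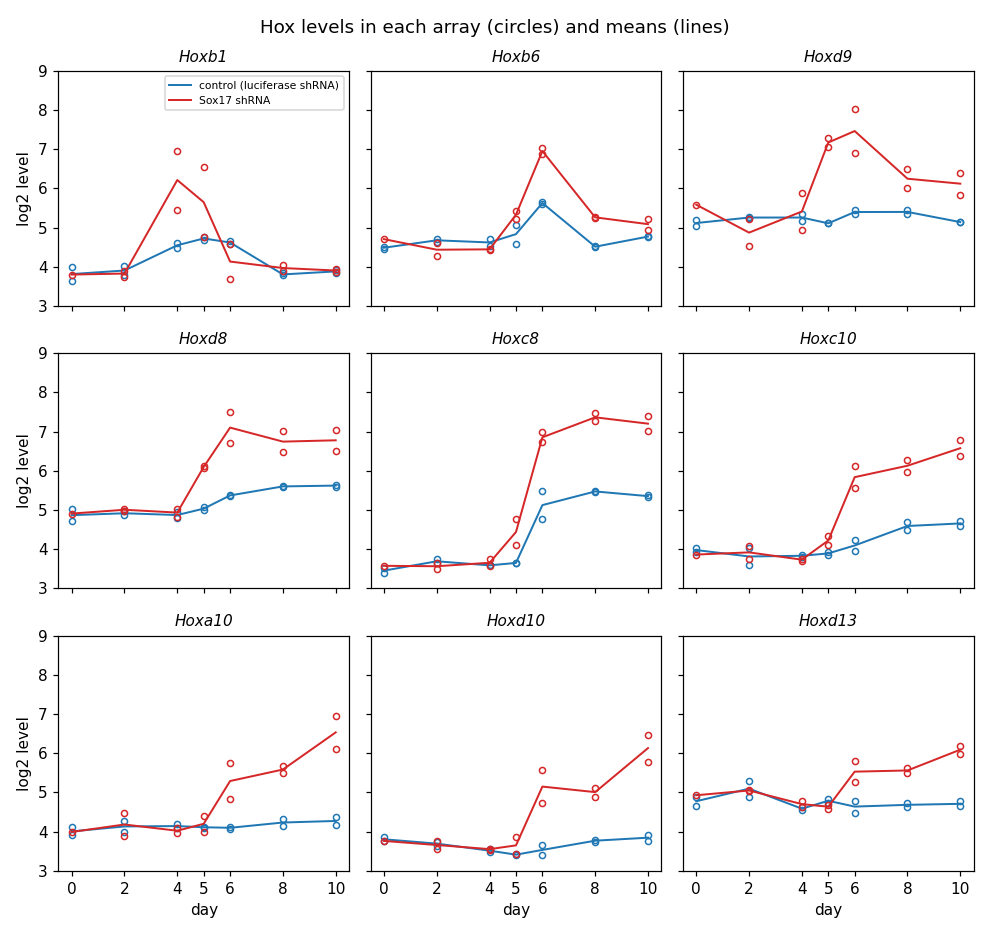
Log2 level (vertical axis) by day (horizontal axis) of 9 Hox genes, with 1 circle per array and lines through the means, blue for the control and red for Sox17 shRNA. Hoxb1 was first called between the arms on day 4, Hoxd9, Hoxd8, Hoxc8 and Hoxb6 on day 5, and Hoxc10, Hoxa10, Hoxd10 and Hoxd13 on day 6, and Hoxb6 peaks on day 6 in both arms.

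Hoxb1, the anterior gene that marks the early primitive streak and later rhombomere identity, was called first between the arms. On day 4 it read 4.49 and 4.61 in the control and 5.46 and 6.97 with Sox17 shRNA. The arms did not overlap, but the Sox17 shRNA arrays lay far apart. The difference was 1.66 (3.17-fold, SE 0.44, adjusted p = 0.0377). On day 5 the control read 4.70 and 4.75 against 6.54 and 4.76, and from day 8 on all arrays were back between 3.78 and 4.05. In the control alone it stood 0.73 above day 0 on day 4 (adjusted p = 0.185) and 0.91 on day 5 (adjusted p = 0.0856), neither of which was called. The day 4 call was lost without either control array or without Sox17 shRNA replicate 2, the array of highest 3′ to 5′ difference, with values between 0.91 and 2.42 and adjusted p up to 0.211 over the 4 left-out arrays.

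Hoxd9, a posterior gene of limb and lumbar levels, separated on day 5. Control arrays lay between 5.05 and 5.46 on every day. With Sox17 shRNA the level was 4.93 and 5.90 on day 4, 7.29 and 7.05 on day 5, 8.02 and 6.90 on day 6, 6.49 and 6.01 on day 8, and 6.40 and 5.84 on day 10. Every Sox17 shRNA array from day 5 on lay above every control array. The difference was 2.06 on day 5 (4.17-fold, SE 0.32, adjusted p = 0.00077) and 2.06 on day 6 (4.18-fold, adjusted p = 0.000595), and both calls held without each array in turn. It was not called on day 8 or day 10. Averaged over the 5 days the difference was 1.22 (SE 0.14, adjusted p = 4.83e-06).

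Hoxd8, the 3′ neighbour of Hoxd9, was called on days 5, 6, 8 and 10. Its chosen probe set also rose in the control arm by day 10 (0.75). That rise was not called with the term for bright bioB (0.57), and the other probe set did not rise (-0.02). On day 5 Hoxd8 read 5.00 and 5.07 in the control against 6.13 and 6.07, and on day 6 it read 5.39 and 5.36 against 7.50 and 6.70. On day 8 it read 5.59 and 5.61 against 7.02 and 6.47, and on day 10 it read 5.60 and 5.65 against 7.05 and 6.51. The arms did not overlap on any of these days. The difference was 1.06 on day 5 (SE 0.22, adjusted p = 0.00555), 1.73 on day 6 (3.32-fold, adjusted p = 7.38e-05), 1.14 on day 8 and 1.16 on day 10. Leaving out control replicate 1 or Sox17 shRNA replicate 1 ended the call on day 5 (adjusted p up to 0.0616), and leaving out Sox17 shRNA replicate 1 ended that on day 8 (0.87, adjusted p = 0.0775).

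Hoxc8 had the largest average difference of the 23 genes, 1.26 (2.40-fold, SE 0.09, adjusted p = 2.88e-08). With Sox17 shRNA it read 3.74 and 3.57 on day 4, 4.11 and 4.77 on day 5, 6.73 and 6.98 on day 6, 7.26 and 7.47 on day 8, and 7.39 and 7.02 on day 10. Both arms rose, and from day 5 every Sox17 shRNA array lay above both control arrays of its day. The differences were 0.79 on day 5, 1.73 on day 6, 1.89 on day 8 (3.71-fold, adjusted p = 1.19e-05) and 1.85 on day 10. The day 5 call was lost without either control array or Sox17 shRNA replicate 2 (0.46 to 1.12, adjusted p up to 0.219), whereas the later calls held without each array.

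Hoxc10, which acts at lumbar and hindlimb levels, rose in both arms and more with Sox17 shRNA. Its rise in the control by day 10 was not called with the term for bright bioB (0.68). Control arrays read 3.96 and 4.23 on day 6, 4.69 and 4.50 on day 8, and 4.71 and 4.61 on day 10. Sox17 shRNA arrays read 6.11 and 5.57 on day 6, 5.97 and 6.29 on day 8, and 6.78 and 6.37 on day 10. All 6 of these lay above all control arrays. The difference was 1.74 on day 6 (3.34-fold, SE 0.19, adjusted p = 1.88e-05), 1.54 on day 8 and 1.92 on day 10 (3.78-fold, adjusted p = 2.94e-06), and each call held without each array.

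Hoxd10 and Hoxa10, paralogues of Hoxc10, differed from it in that the control stayed near its day 0 level. Hoxd10 read 3.40 to 3.93 on every control array. With Sox17 shRNA it read 3.43 and 3.87 on day 5, 5.56 and 4.74 on day 6, 5.12 and 4.90 on day 8, and 6.48 and 5.79 on day 10. Its difference was 1.61 on day 6 (adjusted p = 0.000275), 1.24 on day 8 and 2.28 on day 10 (4.87-fold, SE 0.23, adjusted p = 2.83e-06), and no left-out array ended these calls.

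Hoxa10 read 3.91 to 4.37 on every control array. With Sox17 shRNA it read 3.99 and 4.41 on day 5, 5.76 and 4.83 on day 6, 5.67 and 5.50 on day 8, and 6.96 and 6.11 on day 10. The arms overlapped on day 5 and were apart from day 6. In a second, dimmer probe set of the gene they were apart on day 6, by 0.25, but overlapped on days 8 and 10 (0.05 on day 10). The difference of the chosen probe set was 2.26 on day 10 (4.79-fold, SE 0.27, adjusted p = 2.19e-05). On day 6 it was 1.19 (adjusted p = 0.0132), but that call was lost without either control array or Sox17 shRNA replicate 1 (0.73 to 1.66, adjusted p up to 0.215). On day 8 it was 1.35, lost without control replicate 2 or Sox17 shRNA replicate 1 (adjusted p up to 0.0724).

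Hoxa11 and Hoxd13, which have the highest paralogue numbers among the called genes of the 23, were called on days 6, 8 and 10. Hoxa11, a gene of the forearm and uterus, read 4.48 and 4.69 in the control against 6.40 and 5.55 on day 6, 4.70 and 4.56 against 6.08 and 5.89 on day 8, and 4.69 and 4.79 against 6.77 and 6.16 on day 10. Hoxd13, a gene of digits and hindgut, read 4.49 and 4.79 against 5.79 and 5.27 on day 6, 4.74 and 4.63 against 5.62 and 5.50 on day 8, and 4.65 and 4.78 against 6.19 and 5.99 on day 10. The arms were apart on all 3 days for both genes. On day 10 the difference was 1.73 for Hoxa11 (SE 0.26, adjusted p = 0.000238) and 1.38 for Hoxd13 (SE 0.17, adjusted p = 2.38e-05). On day 6 it was 1.39 and 0.89, and both calls were lost without control replicate 1 or Sox17 shRNA replicate 1 (0.97 to 1.81 for Hoxa11 and 0.63 to 1.15 for Hoxd13). On day 8 the Hoxd13 difference was 0.88, lost without control replicate 2 (adjusted p = 0.0535).

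Hoxa13, which acts at the end of the trunk and in the hindgut, was below the filter, with 5.63 and 5.52 on day 10 in the Sox17 shRNA arrays against 4.29 and 4.32 in the control. Without the filter its difference on day 10 was 1.26 (2.40-fold, SE 0.18, adjusted p = 0.000112). Hoxd11 differed by 0.71 on day 10 in the same fit (adjusted p = 0.00292).

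Among the central genes, Hoxb6 kept its transient course in both arms and rose higher with Sox17 shRNA. It read 5.23 and 5.43 on day 5, 6.89 and 7.02 on day 6, 5.24 and 5.28 on day 8, and 4.95 and 5.23 on day 10 in the Sox17 shRNA arm. The difference was 1.33 on day 6 (2.51-fold, SE 0.15, adjusted p = 2.41e-05). It was 0.50 on day 5, where 3 of the 4 left-out arrays ended the call (control replicate 1 and both Sox17 shRNA arrays, 0.25 to 0.74), and 0.75 on day 8, lost without control replicate 1 (adjusted p = 0.0577).

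Hoxc6 and Hoxc4, trunk genes of the HoxC cluster, differed late. Hoxc6 read 6.48 and 6.40 in the control against 7.09 and 7.06 on day 8, and 6.75 and 6.82 against 7.57 and 7.41 on day 10, with no overlap on either day. Its difference was 0.64 on day 8 (adjusted p = 0.00132) and 0.71 on day 10 (SE 0.11, adjusted p = 0.000303), and both calls held without each array. Hoxc4 differed by 0.66 on day 10 (5.63 and 5.53 against 6.57 and 5.92, adjusted p = 0.0375), a call lost without either control array or Sox17 shRNA replicate 1 (0.34 to 0.99), and by 0.34 in the average (adjusted p = 0.00635).

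The few lower calls lay at the anterior and central end. Hoxb2 was lower with Sox17 shRNA in the average by -0.36 (SE 0.11, adjusted p = 0.0216), with the largest daily difference on day 10, where it read 7.36 and 7.46 in the control against 6.80 and 6.66 (-0.68, adjusted p = 0.0979). That average was not called without control replicate 1 or Sox17 shRNA replicate 2 of day 6 (adjusted p up to 0.0533). Hoxa5, a gene of the cervical and lung region, was lower on day 10 (8.14 and 8.30 in the control against 7.59 and 7.75; -0.55, adjusted p = 0.0301), a call that each of the 4 left-out arrays ended (-0.63 to -0.47, adjusted p up to 0.237). Its average of -0.19 (adjusted p = 0.0465) was lost without 13 of 20 arrays (-0.24 to -0.15).

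Hoxd1, an anterior gene below the filter, was the exception among low-numbered genes on day 6. It read 4.63 and 4.33 in the control against 6.04 and 5.06, apart by 1.07 in the fit without the filter (2.10-fold, SE 0.22, adjusted p = 0.00776). On day 10 it read 3.69 and 3.75 against 3.69 and 3.91. Hoxb5 differed by 0.51 on day 6 in the same fit (adjusted p = 0.0321). The 13 genes Hoxa2, Hoxa3, Hoxa4, Hoxa7, Hoxb3, Hoxb4, Hoxb7, Hoxb9, Hoxb13, Hoxc5, Hoxc9, Hoxc13 and Hoxd12 were not called between the arms on any day or in the average, with or without the filter.

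**Figure D4:**
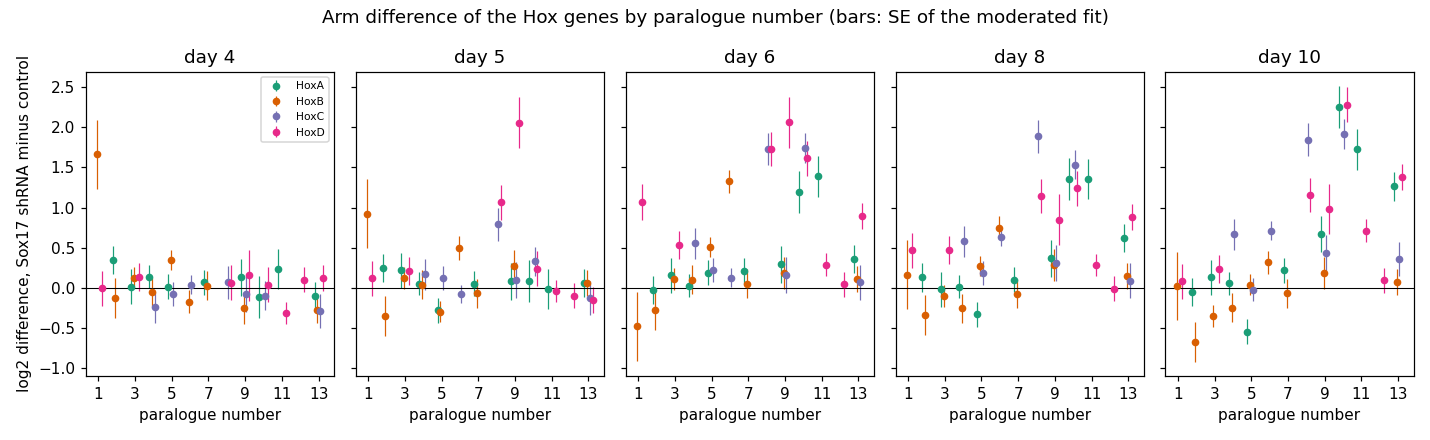
Log2 difference between Sox17 shRNA and control (vertical axis) of all 33 Hox genes by paralogue number (horizontal axis) on days 4, 5, 6, 8 and 10, coloured by cluster, with bars of 1 SE from the fit without the filter. Hoxb1 is the highest point on day 4; on day 10 all points above 1 have numbers 8 to 13 and belong to HoxA, HoxC and HoxD.

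Across the 33 genes, the arm difference followed paralogue number more closely as days passed. Spearman's rho, given as a description over genes that share arrays and are not independent, was -0.30 on day 4, -0.19 on day 5, 0.33 on day 6, 0.41 on day 8 and 0.63 on day 10. By cluster and without the filter, the average was higher for 7 of 8 HoxD genes, 4 of 7 HoxC genes, 4 of 9 HoxA genes and 2 of 9 HoxB genes (10.7% of all genes called higher). Medians of the average difference were 0.48, 0.29, 0.13 and 0.02. HoxB holds 2 posterior genes here, Hoxb9 and Hoxb13, and neither was called.

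The arm difference itself changed between days. A moderated F test of whether it departed among days 4, 5, 6, 8 and 10 called 10 of the 23 genes (4.84% of all genes called) and 12 of 33 without the filter (3.78%). The lowest adjusted p belonged to Hoxc10 (0.000199), whose difference went from -0.10 on day 4 to 1.92 on day 10. The difference of Hoxd9 was largest on days 5 and 6 and that of Hoxb6 on day 6, and both were smaller on day 10, while Hoxa10, Hoxd10 and Hoxd13 were largest on day 10.

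Values depended on the probe set for several of the 11 genes that had more than 1. Hoxa9, Hoxb3 and Hoxa5 were singled out after their values were seen. Hoxa9, a posterior gene with a known role in blood stem cells, has a brighter probe set, 1421579_at, which gave an average arm difference of 0.31 (adjusted p = 0.0329), a call that 12 of 20 left-out arrays ended (0.24 to 0.37). Its other probe set, 1455626_at, read 3.62 to 4.24 on every control array. With Sox17 shRNA it read 4.04 and 3.89 on day 4, 5.14 and 5.96 on day 5, 8.77 and 6.81 on day 6, 7.55 and 6.74 on day 8, and 8.72 and 7.22 on day 10. Every Sox17 shRNA array from day 5 on lay above every control array. Its difference was 3.85 on day 6, 3.02 on day 8 and 3.80 on day 10, each larger than any daily difference of the probe sets chosen by brightness. The day 6 value ranged from 2.87 to 4.83 and the day 10 value from 3.05 to 4.55 when each array was left out. These are descriptions with no test, since the probe set exceeded the median of all values in Sox17 shRNA arrays alone and its control level was dim on every array.

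Hoxb3, a hindbrain gene, showed the same split between its probe sets in the control arm. The brighter one, 1427605_at, rose by 0.47 between day 0 and day 10. The other, 1456229_at, read 4.14 and 4.09 on day 0, 5.29 and 5.17 on day 5, 6.45 and 6.23 on day 6, 6.25 and 6.34 on day 8, and 7.18 and 7.14 on day 10, a rise of 3.05 (8.27-fold, SE 0.22, adjusted p = 1.99e-09; 68.5% of all 23536 probe sets called when each was fitted on its own), and of 2.75 with the term for bright bioB. On day 10 the Sox17 shRNA arrays read 6.51 and 6.13, lower than the control by -0.84 (adjusted p = 0.0223; 8.03% of all probe sets called), a call kept only without Sox17 shRNA replicate 1 (adjusted p = 0.12 to 0.198 without the others).

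Hoxa5's 2 probe sets differed in sign: the average was -0.19 for 1443803_x_at and 0.38 for 1448926_at (adjusted p = 0.0525 and 0.0618 in the fit per probe set). Its lower average therefore rests on the probe set, while on day 10 both were lower with Sox17 shRNA (-0.55 and -0.16). Hoxa10 and Hoxd13 had a second, dimmer probe set with smaller differences. That of Hoxa10 read at most 3.94 on any array and gave 0.25 on day 6, 0.07 on day 8 and 0.05 on day 10, against 1.19, 1.35 and 2.26 for the chosen one. That of Hoxd13 gave 0.01, 0.30 and 0.53 on the same days, against 0.89, 0.88 and 1.38. For Hoxc5 a dimmer probe set gave 0.67 on day 10 where the chosen one gave -0.02, and for Hoxa3 another rose by 0.78 in the control by day 10 where the chosen one fell by 0.94. Both probe sets of Hoxd8 gave similar average differences, 1.03 and 0.79, but the dimmer one did not rise in the control (-0.02 by day 10, against 0.75). The 3 probe sets of Hoxc6 gave averages of 0.29, 0.32 and 0.15. The probe sets of Hoxa4 gave averages of 0.06 and 0.05, and those of Hoxb4 -0.09 and -0.19. A further 3 probe sets were annotated to a pair of Hox symbols and left out. Which transcript or exon each probe set reads was not analysed here.

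**Figure D5:**
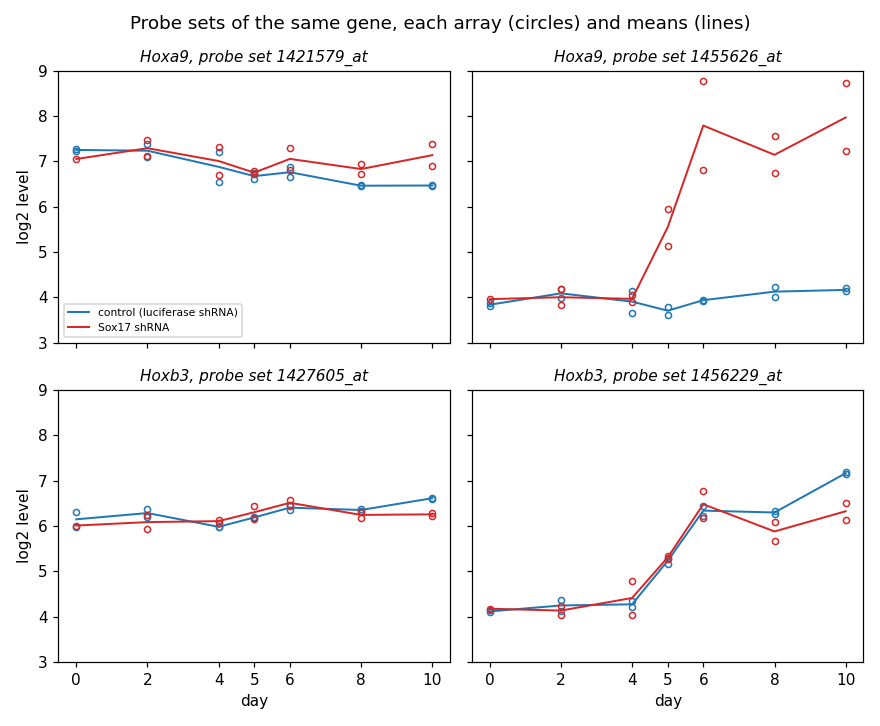
Log2 level (vertical axis) by day (horizontal axis) of the 2 probe sets of Hoxa9 and of Hoxb3, with 1 circle per array and lines through the means, blue for the control and red for Sox17 shRNA. The Hoxa9 probe set 1455626_at stays at 3.62 to 4.24 in the control and reaches 8.77 with Sox17 shRNA, while 1421579_at stays between 6.45 and 7.47 in both arms.

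Some Cdx and tail bud genes were higher with Sox17 shRNA on days 4 to 6. Of 6 measured genes of the list of Cdx factors, Brachyury, Gdf11 and tail bud signals, 3 were higher with Sox17 shRNA on day 5 and 0 lower, where 6.15% of all genes were called higher (median 0.71 against 0.00 for all genes). They were Cdx2, a direct activator of trunk Hox genes (1.34, adjusted p = 0.00706), Fgf8 (2.62, adjusted p = 0.000153) and Nkx1-2 (2.30, adjusted p = 1.68e-05), which mark the streak and tail bud. Nkx1-2 was already 3.05 higher on day 4. Of the 6, 1 was higher on day 4 (3.33% of all genes) and 2 on day 6 (2.84%), with 0 lower on either day. On day 10, 0 of the 6 were higher and 1 lower. In the average over days 4 to 10, 2 were higher and 1 lower (median 0.16), against 14.8% and 12.2% of all genes. The part of these genes in the Hox differences was not tested. Evx1, a homeobox gene beside the 5′ end of HoxA, differed by 0.91 on day 4, 2.48 on day 5 (adjusted p = 3.74e-06) and 1.49 on day 6; of the 4 measured Evx and Dlx genes it alone was called in the average (1.23).

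TALE partners of Hox proteins were called between the arms about as often as genes at large. In the average over days 4 to 10, where 27% of all genes were called (14.8% higher and 12.2% lower), of 7 measured genes 1 was higher (Meis3, 0.25) and 1 lower (Meis1, -0.59, adjusted p = 6.33e-06), with a median of 0.04. In the control, 6 of the 7 rose by day 10 (31.5% of all genes higher), among them Meis2 (4.00), Meis1 (2.72), Pbx2 (2.52) and Pbx3 (2.34).

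Of 15 measured retinoic acid genes, 3 were higher and 4 lower in the average (median -0.03), against 14.8% and 12.2% of all genes. The lower ones were Crabp1, a retinoic acid binding protein (-1.31), Cyp26a1, which degrades retinoic acid (-1.13, adjusted p = 0.000243), the receptor gene Rarb (-0.89), itself induced by retinoic acid, and Stra6, which takes up retinol (-0.40). The higher ones were Dhrs3, which lowers retinaldehyde (0.65), Aldh1a2, the main embryonic retinoic acid synthase (0.52; 1.33 on day 10, adjusted p = 0.0102), and Rarg (0.34).

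Of 18 measured Polycomb genes, 4 were higher (Cbx7 by 0.45, Phc1 by 0.43, Cbx6 by 0.41 and Ezh2 by 0.37) and 4 lower (Cbx2, Ezh1, Mtf2 and Rnf2, by at most -0.28), with a median of -0.05, where 14.8% of all genes were higher and 12.2% lower. Of 9 trithorax genes and H3K27 demethylases, 1 was higher, Ash2l (0.48), and 0 lower. Of 12 measured neighbours of the clusters that are no homeobox genes, 5 were higher in the average and 0 lower: Hibadh (0.65), Skap2 (0.52), Calcoco2 (0.47), Tax1bp1 (0.33) and Snx10 (0.21). The median was 0.15.

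Markers of other cell types also differed between the arms. In the average 14.8% of all genes were called higher and 12.2% lower, and each count of the average below stands beside those shares. All 6 allantois and extraembryonic mesoderm markers were measured, and 4 were higher in the average and 0 lower: Tbx4 (1.70; 3.61 on day 10, adjusted p = 3.12e-09), Hand1 (1.01), Pitx1 (0.80) and Plac1 (0.68). Their summed log2 level on days 6 to 10 ran from 45.3 to 47.2 in the control and from 52.6 to 55.4 with Sox17 shRNA, without overlap. Blood markers were higher for 5 of 6 and lower for 0 (summed level 36.1 to 46.7 against 43.8 to 55.1), and streak and tail bud markers higher for 4 of 9 and lower for 0. Cardiac muscle markers were higher for 0 of 8 and lower for 6 (summed level 72.7 to 79.2 against 49.2 to 61.6), and neural markers higher for 1 of 7 and lower for 2. Of 8 visceral and definitive endoderm markers, 6 were lower and 0 higher, Sox17 itself among them with Cubn (-2.73), Cer1 (-1.05), Foxa2 (-1.04), Afp (-0.89) and Hhex (-0.64), and their summed level ran from 62.4 to 68.4 against 50.2 to 60.6. Of 10 pluripotency markers, 5 were higher, namely Zfp42 (1.92), Dppa3 (1.61), Nanog (1.42), Nr0b1 (0.51) and Esrrb (0.26), and Klf4 was lower (-1.51). On days 4 and 5, 4 of the 10 were higher and 0 lower on each day, where 3.33% and 6.15% of all genes were called higher. The summed levels of the arms overlapped on those days (66.0 to 79.4 against 70.6 to 88.5). Paraxial and intermediate mesoderm markers were lower for 3 of 8 and neural crest markers for 2 of 4, with 0 higher in either list. Of 5 endothelial markers 0 were called in limma (0 also at an unadjusted p under 0.05), and of 4 limb and fibroblast markers 2 were higher and 1 lower. The part of these cell types in the Hox differences was not tested.

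The Sox17 shRNA replicates were less alike than the control replicates. Over all genes the correlation between replicates on days 5 to 10 was 0.995 to 0.998 in the control and 0.979 to 0.984 with Sox17 shRNA. On day 6 replicate 1 was higher than replicate 2 for Hoxa10, Hoxa11, Hoxc10, Hoxd8, Hoxd9, Hoxd10 and Hoxd13, while Hoxb6 and Hoxc8 were slightly higher in replicate 2. Sox17 read higher in Sox17 shRNA replicate 2 than in replicate 1 on each day from day 4. The values were 9.39 against 5.53 on day 4, 10.08 against 7.77 on day 5 and 9.39 against 8.60 on day 6. They were 8.54 against 7.90 on day 8 and 7.19 against 6.71 on day 10. Both control arrays of day 5 read 10.38. On day 10 the genes higher in replicate 1 on day 6 were so again, with actin differences of 0.53 on both arrays. On day 8 they were so too, except Hoxc10 (5.97 against 6.29 in replicate 2). On day 5 only Hoxd8 and Hoxd9 of these genes were higher in replicate 1, and Hoxa11, for example, read 4.54 against 4.97. On day 4 only Hoxa10, Hoxa11 and Hoxd10 were higher in replicate 1, and Hoxd9, for example, read 4.93 against 5.90. What these gaps between replicates went with was not tested. On day 6 the array of lower values also had the higher 3′ to 5′ actin difference. Without both Sox17 shRNA arrays of high difference, only replicate 1 was left in that arm on day 6, with a difference of 2.63 for Hoxd9 and 2.03 for Hoxd10.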

How the data were processed

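RNA of 27 samples was hybridised to Affymetrix arrays, and the deposited log2 levels per probe set were made with RMA, per the submitters' processing notes, which give no version. RMA corrects background, quantile-normalizes and summarises probes. No source used here names a genome build. Gene names came from GEO's platform table (34958 probe sets with 1 symbol, 932 with several, 9211 not listed).

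Each gene was represented by its single-symbol probe set of highest mean. limma 3.58.1 in R 4.3.3 fitted all 14 groups (residual degrees of freedom 13, prior 4.68) with an intensity trend, and p-values were adjusted by Benjamini-Hochberg over all 13297 genes. Folds are 2 to the log2 difference. The code was tested on simulated data. Replicates shared a number between arms, but their deviations correlated by 0.13, 0.68, 0.22, 0.12, 0.10 and 0.10 on days 2 to 10, the last below 0.1, so they were not paired. Genes named are every Hox gene called in a comparison, plus those described for not being called; list genes named are called members. Members and lists were chosen with earlier results of these data known. Alternatives were no filter, the mean of a gene's probe sets, no trend, a replicate block, a term for bright bioB (above 9) and leaving out each array; the fits per probe set and without high 3′ to 5′ arrays were chosen after seeing the data. The number of arrays limits the precision, and an array gives no read depth. Spearman correlations over genes carry no p-value.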

Additional observations from a re-analysis of the deposited data

Results flagged for a closer look

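The difference between Sox17 shRNA and control departed among days 4, 5, 6, 8 and 10 for 10 Hox genes, tested directly with a moderated F test in limma. Of all genes 4.84% were called, and without the filter 12 of 33 Hox genes against 3.78% of all genes. Among the 10, Hoxa10, Hoxa11, Hoxc8, Hoxc10, Hoxd9, Hoxd10 and Hoxd13 passed the filter only through Sox17 shRNA arrays. Their adjusted p-values carry that selection. Adjusted p was 0.000199 for Hoxc10, 0.000813 for Hoxd10, 0.00168 for Hoxc8, 0.00211 for Hoxd13, 0.00254 for Hoxb6, 0.00308 for Hoxa10, 0.0065 for Hoxc6, 0.0145 for Hoxa11, 0.0261 for Hoxd8 and 0.0403 for Hoxd9. Hoxb6 and Hoxd9 were largest at day 6 and smaller at day 10 (1.33 and 0.32 for Hoxb6, 2.06 and 0.98 for Hoxd9), whereas Hoxd10, Hoxa10, Hoxc10 and Hoxd13 were largest at day 10. No group has the 4 arrays that a test for a single outlying array needs.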

How the results depend on the processing

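Of 61 named gene results, 59 kept direction and call without the filter, 61 without the intensity trend, 53 with the bioB term, and 399 results over left-out arrays did (69 lost the call, 0 turned). With the mean of each gene's probe sets 47 kept the call, 3 lost it and 1 turned: Hoxa5's average became 0.093 (adjusted p = 0.37), as its probe sets differ in sign. The remaining results, those of Hoxa3, Hoxa10, Hoxc5 and Hoxd13, had no value there, because the mean of their probe sets did not pass the filter. Counts of called Hox genes moved as follows. They are given without the share of all genes called in each fit, so whether that share moved with them cannot be read here. The day 4 arm count of 1 became 0 without the high 3′ to 5′ arrays. The control day 2 count of 1 became 0 with mean probe sets and 2 with the bioB term. The control day 4 count of 2 became 1 without the filter, 0 with mean probe sets and 0 with the bioB term. With the bioB term the control counts were 1 on day 5, 3 on day 6, 5 on day 8 and 6 on day 10, and the Sox17 shRNA day 5 count was 4; without the filter the control day 6 count was 16. Leaving out arrays gave 0 to 1 (arms, day 4), 1 to 3 (arms, day 5), and in the control 0 to 0 (day 2), 0 to 5 (day 4), 4 to 6 (day 5), 6 to 10 (day 6) and 9 to 13 (day 10); in the Sox17 shRNA arm 1 to 7 (day 4) and 4 to 9 (day 5). The cause was not tested. A lone remaining array is assumed to vary like the other groups. With the replicate block, the arm counts were 9 on day 6, 10 on day 10 and 14 in the average, and no call among the 61 changed.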
